A study of Homo sapiens with 6 samples.

Results

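The genes described here are the human heat shock proteins and their co-chaperones, taken as the protein-coding genes whose symbols belong to the HSPA, HSPB, HSPD, HSPE, HSPH and HSP90 names, the DNAJA, DNAJB and DNAJC proteins, BAG1 to BAG6, the CCT subunits with TCP1, and the factors HSF1 and HSF2, with CRYAB. The rule took 88 gene identifiers with 87 symbols from GENCODE 29. Of these, 76 had a row in the count table of 18677 genes and 75 passed the filter on low counts, among 17675 genes tested. HSPB8 had a row with 3, 5 and 5 reads in the SETDB1-knockout libraries and 19, 17 and 10 reads in the control libraries, and it was not tested. The other 12 identifiers were not analysed here, and they belong to DNAJA4, DNAJB7, DNAJB8, DNAJB13, DNAJC12, HSPA12B, HSPB2, HSPB3, HSPB7, HSPB9, CRYAB and a second identifier of HSPA14. The rule reads symbols and no measured value.

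The libraries are bulk RNA-seq of H1299, a non-small cell lung cancer line that lacks functional p53. In the knockout group (3 libraries), cells carried the guide RNA hSETDB1 sg1 against SETDB1, a histone H3 lysine methyltransferase that silences chromatin. In the control group (3 libraries), cells carried the guide Control sg2, and both lines were kept in RPMI-1640 with serum, antibiotics and puromycin. Each group rests on 1 guide, and neither heat nor another stress is named in the labels. Whether the libraries of a group came from separate cultures, or the lines from single clones, is not stated, so the p-values measure only the spread between these libraries.

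Heat shock proteins hold unfolded proteins in solution and help them fold. HSP70 proteins bind short exposed stretches of a client. J-domain proteins (the DNAJ families) bring clients and start the ATP cycle, and HSP110 and most BAG proteins release the nucleotide. HSP90 matures kinases and hormone receptors, the TRiC ring folds actin and tubulin, HSP60 with HSP10 folds proteins in mitochondria, and small heat shock proteins trap clients without ATP. HSF1 is the main transcription factor that raises these genes under stress, and it binds heat shock elements, which are inverted repeats of the letters GAA. Tumour cell lines often hold these proteins at high levels.

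Totals ran from 29532057 to 35941288 counts per library, and levels are given as CPM, the counts scaled to a common library total after TMM normalisation. The targeted gene, SETDB1, measured 40.6, 36.1 and 39.1 CPM in knockout libraries, against 45.01, 43.96 and 41.6 CPM in control libraries (log2 fold change -0.17 ± 0.06, SE, edgeR adjusted p = 0.0151). That difference missed the threshold without knockout replicate 2 (log2 fold change -0.13, edgeR adjusted p = 0.0896), and with library size alone as the scaling (-0.13, edgeR adjusted p = 0.0605), so mRNA level is a weak check of the knockout labels. The groups separated on the leading principal component, with 89.1% of the variance. The mesenchymal list summed to 2290 to 2400 CPM in knockout libraries and 2558 to 2678 CPM in control libraries, with all 5 of its genes in the table. Nearly all of it was VIM, at 2216 CPM in knockout cells and 2430 CPM in control cells. CDH2 (log2 fold change -1.18) and ZEB1 (-0.17) were lower and FN1 (0.48) was higher. SNAI2 averaged only 0.202 CPM in knockout cells and 0.433 CPM in control cells. The epithelial list summed to 482 to 496 CPM in knockout libraries and 943 to 1013 CPM in control libraries. That sum was nearly all KRT8 and KRT18, while EPCAM averaged 0.179 CPM in knockout libraries and 0.254 CPM in control libraries, and KRT19 and CDH1 were not analysed here. The immune, endothelial, fibroblast and lung-lineage lists each summed to under 4 CPM in every library. Whether these levels have a part in the chaperone results was not tested.

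Most tested members differed between the groups, and calls went in both directions. In edgeR's quasi-likelihood test at a Benjamini-Hochberg adjusted p under 0.05 over all genes tested, 34 of the 75 tested members were higher in the knockout, 24 were lower and 17 were not past the threshold. The background was high: 63.5% of all genes tested were called, 31.9% higher and 31.6% lower. Against this, 77.3% of the tested members were called, 45.3% higher and 32.0% lower. The median log2 fold change of the tested members was 0.08, and that of all genes tested was 0.01. With the sign left aside, the median log2 fold change was 0.27 for the tested members and 0.33 for all genes tested. The members were thus called more often, but their changes were not larger in size. A fold of at least 2 was rarer. Only HSPB1, HSPA1A and HSPA1B, 3 of the 75 tested members, were at least 2-fold higher, against 7.14% of all genes. HSPA12A, HSPB6 and DNAJB4, also 3 of the 75, were at least 2-fold lower, against 5.78% of all genes. The groups of 3 libraries did not overlap for 60 of the 75 tested members (80.0%), while they did not overlap for 66.8% of all genes tested.

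By family, the direction was uneven. Of the 30 chaperones outside the DNAJ, BAG and HSF families, 20 were higher (66.7%), 4 were lower (13.3%) and 6 were not called. Their median log2 fold change was 0.25. Of the 37 J-domain proteins, 12 were higher (32.4%), 15 were lower (40.5%) and 10 were not called, with a median of -0.04. Of all genes tested, 31.9% were higher and 31.6% were lower. In the smaller classes, all 3 HSP90 genes, all 3 HSP110 genes and both HSP60/HSP10 genes were higher. Among the 6 BAG genes 1 was higher and 4 were lower. These classes are small, and 63.5% of all genes tested were called. Whether the families differ from one another was not tested. In bulk libraries, less RNA per cell and fewer cells that carry it cannot be told apart, which holds for every value given here.

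**Figure D1:**
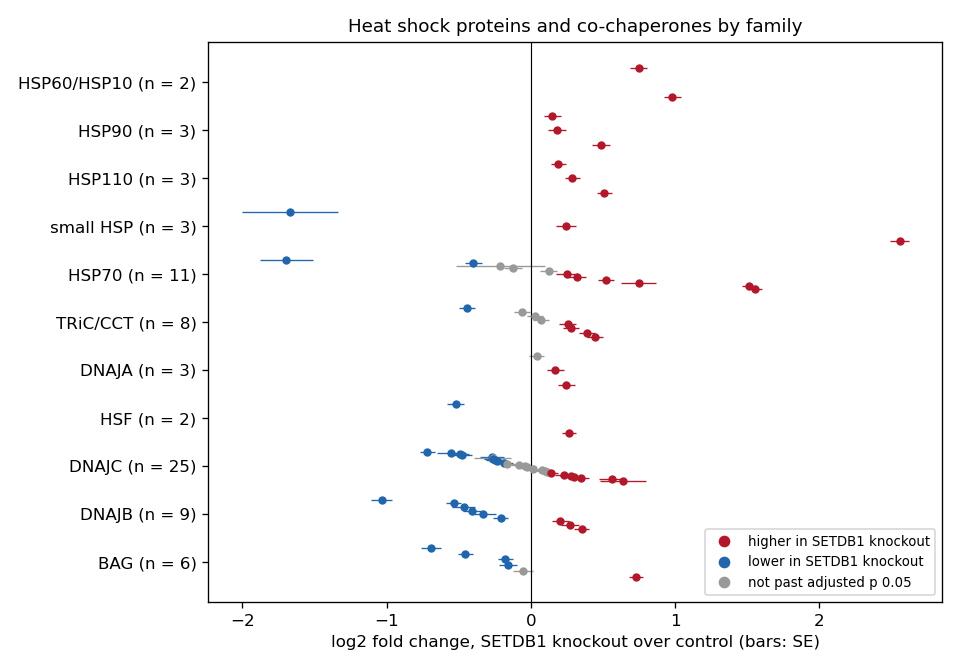
Log2 fold change of each of the 75 tested members, SETDB1 knockout over control, in rows by family with the SE as a bar, coloured by whether edgeR called the gene higher, lower or neither. HSPB1, HSPA1A and HSPA1B lie farthest to the right and HSPA12A, HSPB6 and DNAJB4 farthest to the left, while the DNAJ families spread to both sides of 0.

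The transcription factors moved in opposite directions. HSF1, the main activator of the heat shock response, measured 115, 117 and 123 CPM in knockout libraries and 97.5, 98.5 and 99.4 CPM in control libraries. All 3 knockout libraries lay above all 3 control libraries. The log2 fold change was 0.26 ± 0.05 (SE, edgeR adjusted p = 1.40e-04), a 1.201-fold rise. HSF2, a related factor that can pair with HSF1, measured 27.9, 29.6 and 28.1 CPM in knockout libraries and 39.5, 41.9 and 41.5 CPM in control libraries. Its groups did not overlap either, and it fell 1.44-fold (log2 fold change -0.52 ± 0.06, edgeR adjusted p = 1.22e-07). Both genes moved in the direction of the genes around them. The 25 expressed genes on each side had a median log2 fold change of 0.48 around HSF1 and -0.55 around HSF2. With that median taken out, HSF1 turned to -0.21 (edgeR adjusted p = 0.00129) and HSF2 to 0.02 (edgeR adjusted p = 0.735).

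The largest rise among the members was that of HSPB1 (HSP27, chr7:76302544-76304295 in GRCh38), a small heat shock protein that binds unfolded clients and actin. HSPB1 measured 289, 326 and 337 CPM in the knockout libraries, against 54.9, 51.9 and 55.04 CPM in the control libraries. The lowest knockout library lay above the highest control library by a wide gap, and the control libraries were close to each other. The means were 317 ± 24.9 CPM in knockout cells and 53.9 ± 1.74 CPM in control cells (SD, n = 3 each), a 5.88-fold rise with a log2 change of 2.56 ± 0.06 (SE, edgeR adjusted p = 2.88e-17). Per kilobase of merged exons, HSPB1 stood at 194 CPM in knockout cells and 33.01 CPM in control cells, which ranked it 7 among the members in the knockout and 25 in the control. Its chromosomal neighbours had a median log2 fold change of 0.03, and its log2 fold change was 2.53 with that taken out. HSPB1 shares 11.4% of its transcript's 50-base words with other annotated genes, where reads can be split or dropped.

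The other small heat shock proteins were scarce or moved less. HSPB11, which is known as a subunit of the intraflagellar transport machinery, averaged 20.02 ± 0.624 CPM in knockout cells and 16.9 ± 1.47 CPM in control cells (log2 fold change 0.24 ± 0.07, edgeR adjusted p = 0.00521). HSPB6 (HSP20) had 6, 6 and 5 reads in knockout libraries and 17, 16 and 21 reads in control libraries, and edgeR called it lower (log2 fold change -1.67 ± 0.34, adjusted p = 2.25e-04). Its neighbours had a median of -0.74, it was at -0.95 with that taken out (edgeR adjusted p = 0.0251), and 38.2% of its exon bases overlap another gene. At this depth HSPB6 and HSPB8 were close to the limit of detection in both groups. The summed small heat shock proteins came to 338 ± 25.4 CPM in knockout cells and 71.9 ± 2.66 CPM in control cells, a ratio of 4.699 that is carried by HSPB1.

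The stress-inducible HSP70 genes HSPA1A (chr6:31815464-31817946) and HSPA1B (chr6:31827735-31830255) rose next. These neighbours in the major histocompatibility region encode the same HSP70 protein. HSPA1A measured 324, 343 and 342 CPM in knockout libraries and 114, 114 and 116 CPM in control libraries. HSPA1B measured 296, 308 and 305 CPM in knockout libraries and 106, 105 and 107 CPM in control libraries. Within a group the libraries were nearly level for both genes, and the groups lay far apart. HSPA1A was 2.93-fold higher (log2 fold change 1.55 ± 0.05, edgeR adjusted p = 3.23e-15) and HSPA1B was 2.86-fold higher (log2 fold change 1.51 ± 0.05, edgeR adjusted p = 3.43e-15). They share 72.6% and 73.5% of their 50-base words, mostly with each other, so the division of reads between them is uncertain, and their sum is the firmer value. The sum was 639 ± 17.01 CPM in knockout cells and 221 ± 2.65 CPM in control cells, a ratio of 2.898. HSPA1L, the testis-enriched gene on the opposite strand beside HSPA1A, was low and rose 1.68-fold, with 4.099, 4.36 and 4.45 CPM in knockout libraries and 2.24, 2.62 and 2.796 CPM in control libraries (edgeR adjusted p = 2.04e-05). The neighbourhood of these genes was itself shifted, with medians of 0.31 around HSPA1A, 0.29 around HSPA1B and 0.33 around HSPA1L. With it taken out, the log2 fold changes were 1.24 for HSPA1A, 1.22 for HSPA1B and 0.42 for HSPA1L.

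The promoters of the largest rises are shown with the heat shock elements they hold, beside that of HSPA8, the constitutive HSP70, which did not pass the threshold. The windows run from 250 bases before to 50 bases after the start site and are RefSeq sequences of GRCh38.p14, 5′ to 3′ on the gene's strand. HSPB1 is at chr7:76302423-76302722 on the plus strand, HSPA1A at chr6:31815293-31815592 on the plus strand, and HSPA8 at chr11:123062087-123062386 on the minus strand. Capitals mark matches, on either strand, to GAANNTTC, to TTCNNGAA, or to the longer element that joins them (GAA, any 2 bases, TTC, any 2 bases, GAA).
HSPB1: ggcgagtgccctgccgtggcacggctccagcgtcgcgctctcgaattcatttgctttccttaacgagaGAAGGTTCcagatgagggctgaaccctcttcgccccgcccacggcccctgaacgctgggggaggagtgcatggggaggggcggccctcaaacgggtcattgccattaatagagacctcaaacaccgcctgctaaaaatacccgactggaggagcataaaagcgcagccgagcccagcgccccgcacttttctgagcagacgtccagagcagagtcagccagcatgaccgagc
HSPA1A: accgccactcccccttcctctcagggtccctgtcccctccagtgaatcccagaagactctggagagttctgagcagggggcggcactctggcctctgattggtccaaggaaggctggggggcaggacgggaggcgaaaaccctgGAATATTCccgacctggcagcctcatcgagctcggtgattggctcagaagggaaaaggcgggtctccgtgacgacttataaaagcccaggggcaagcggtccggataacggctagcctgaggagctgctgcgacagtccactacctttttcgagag
HSPA8: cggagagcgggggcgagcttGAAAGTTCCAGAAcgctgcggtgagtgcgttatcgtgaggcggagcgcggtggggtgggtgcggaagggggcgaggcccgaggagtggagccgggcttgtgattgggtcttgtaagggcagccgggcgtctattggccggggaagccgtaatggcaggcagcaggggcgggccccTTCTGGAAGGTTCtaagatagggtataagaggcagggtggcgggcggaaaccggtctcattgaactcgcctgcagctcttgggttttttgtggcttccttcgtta
HSPB1 and HSPA1A each hold 1 match to GAANNTTC and none to the longer element, and HSPA8 holds 2 matches to the longer element. Over all 35116 promoter windows, GAANNTTC was found in 6.77%, TTCNNGAA in 7.74% and the longer element in 0.490%. The longer element was found in 7 members, of which DNAJA1, HSP90AA1, HSP90AB1 and HSPD1 were higher, DNAJB6 was lower, and HSPA6 and HSPA8 were not called. Of the 17 tested members with GAANNTTC, 10 were higher, 4 were lower and 3 were not called. These include HSPA1A and HSPA1L, whose windows share 241 bases and whose match is the same bases, so they are not separate cases. For TTCNNGAA, the counts were 6 higher, 3 lower and 4 not called of 13 tested members. Of all tested members 45.3% were higher and 32.0% lower, and of all genes tested 31.9% and 31.6%. Whether members with a match differ from the others was not tested. A match is only a run of letters, and factor binding was not measured.

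**Figure D2:**
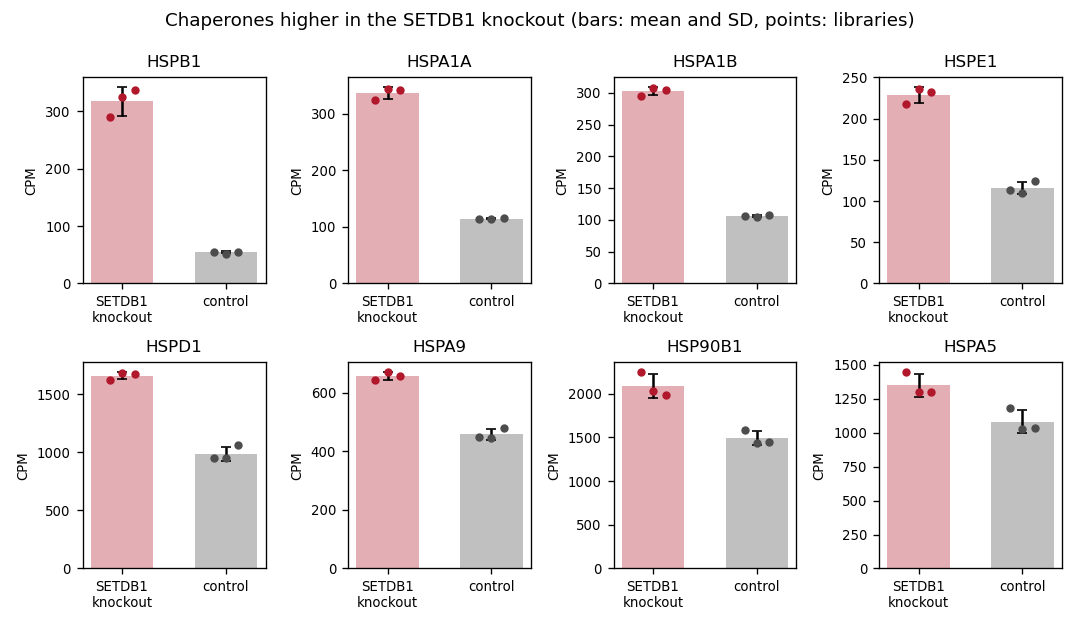
CPM of HSPB1, HSPA1A, HSPA1B, HSPE1, HSPD1, HSPA9, HSP90B1 and HSPA5 in each library, with the SETDB1 knockout left of the control, points for libraries and bars for the mean and SD (n = 3 each). No control library reaches a knockout library in any of the 8 panels, and the ratio of the lowest knockout to the highest control library is largest for HSPB1 and smallest for HSPA5.

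The other HSP70 genes did not share one direction. HSPA8 (HSC70), the constitutive cytosolic HSP70, measured 3166, 3232 and 3157 CPM in knockout libraries and 2827, 2834 and 3099 CPM in control libraries. Its groups did not overlap, but control replicate 3 lay close to the knockout values, and edgeR did not call it (log2 fold change 0.13 ± 0.06, adjusted p = 0.0689). Without control replicate 3 it passed (log2 fold change 0.17, edgeR adjusted p = 0.00899), and it also passed with DESeq2 (adjusted p = 0.0301), with limma-voom (adjusted p = 0.0398) and with library size alone as the scaling (edgeR adjusted p = 0.0140). HSPA6, a strictly heat-induced HSP70, was near the limit of detection with 0.363 ± 0.0659 CPM in knockout cells and 0.425 ± 0.0519 CPM in control cells, and it shares 45.5% of its 50-base words with HSPA7 (edgeR adjusted p = 0.584). HSPA12A, a distant HSP70 relative, fell 3.24-fold, with 0.800, 0.693 and 1.11 CPM in knockout libraries and 2.57, 2.68 and 3.19 CPM in control libraries (log2 fold change -1.70 ± 0.18, edgeR adjusted p = 1.17e-07). Its groups did not overlap. Its neighbours had a median of -0.56, and with that taken out the value was -1.13. HSPA2, best known from spermatogenesis, averaged 14.4 ± 0.854 CPM in knockout cells and 12.1 ± 0.792 CPM in control cells (edgeR adjusted p = 0.00715), and its call was lost without knockout replicate 2 (edgeR adjusted p = 0.0523) or control replicate 2 (edgeR adjusted p = 0.0577). HSPA2 had a log2 change of 0.25 ± 0.08, and of 0.51 with its neighbours taken out. HSPA14, which works on the ribosome, was not called (log2 fold change -0.12 ± 0.06, edgeR adjusted p = 0.101), but it was called lower without control replicate 1 (edgeR adjusted p = 0.0344).

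In mitochondria, the chaperonin and its HSP70 rose together. HSPE1 (HSP10), the lid of the folding chamber, measured 218, 236 and 233 CPM in knockout libraries and 113, 110.2 and 125 CPM in control libraries. HSPD1 (HSP60), the chamber itself, measured 1626, 1686 and 1671 CPM in knockout libraries and 954, 952 and 1059 CPM in control libraries. Neither gene's groups overlapped. HSPE1 was 1.97-fold higher (log2 fold change 0.98 ± 0.06, edgeR adjusted p = 1.55e-11) and HSPD1 was 1.68-fold higher (log2 fold change 0.75 ± 0.06, edgeR adjusted p = 1.08e-09), while their shared neighbourhood had a median of 0.02. HSPA9 (mortalin), the HSP70 that pulls proteins through the inner membrane, measured 644, 671 and 656 CPM in knockout libraries and 449, 447 and 479 CPM in control libraries, a 1.43-fold rise (log2 fold change 0.52 ± 0.05, edgeR adjusted p = 6.23e-08). The mitochondrial J-domain proteins DNAJC30 (log2 fold change 0.56 ± 0.09, edgeR adjusted p = 1.50e-05) and DNAJC19 (log2 fold change 0.23 ± 0.06, edgeR adjusted p = 0.00253), known for the ATP synthase and for protein import, were also higher. DNAJA3, DNAJC11 and DNAJC15 were not called, although DNAJC15 was called lower without knockout replicate 3 (edgeR adjusted p = 0.0384). In all, 5 of the 8 mitochondrial members were higher (62.5%) and 0 were lower, against 31.9% and 31.6% of all genes tested.

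HSPD1 and HSPE1 are divergent genes on chromosome 2. RefSeq gives HSPD1 a pair of start sites, 105 and 539 bases from the start of HSPE1. The window of the farther start is chr2:197499791-197500090 on the minus strand (GRCh38.p14). It lies wholly beyond the nearer start, outside the stretch between that start and HSPE1. Its capitals mark overlapping heat shock element letters at its 5′ end.
HSPD1: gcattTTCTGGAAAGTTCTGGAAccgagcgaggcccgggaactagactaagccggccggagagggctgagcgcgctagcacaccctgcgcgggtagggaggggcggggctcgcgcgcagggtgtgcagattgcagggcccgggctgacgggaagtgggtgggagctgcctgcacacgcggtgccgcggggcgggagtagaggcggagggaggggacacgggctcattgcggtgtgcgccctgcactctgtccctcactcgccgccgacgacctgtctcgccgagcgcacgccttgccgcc
The run in capitals holds 2 overlapping matches to the longer heat shock element. Of the HSPD1 windows, the one with the most matches was printed. No match was found in the window of the nearer HSPD1 start or in that of HSPE1. Reads shared with other genes touch this pair too, since 24.8% of the 50-base words of HSPD1 and 27.2% of those of HSPE1 occur elsewhere in the annotation.

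Of 13 other mitochondrial folding and quality control genes tested, 8 were higher (61.5%) and 4 were lower (30.8%), against 31.9% and 31.6% of all genes. TRAP1, the mitochondrial HSP90, averaged 154 ± 1.36 CPM in knockout cells and 106 ± 2.48 CPM in control cells (log2 fold change 0.55 ± 0.05, edgeR adjusted p = 1.04e-08). ATF5, a transcription factor of the mitochondrial unfolded protein response, had a log2 change of 0.78 ± 0.05 (edgeR adjusted p = 1.54e-10), but its neighbours had a median of 0.83 and with that taken out it was at -0.06 (edgeR adjusted p = 0.371). CLPX, the ATPase of a matrix protease (log2 fold change -0.54 ± 0.05, edgeR adjusted p = 4.38e-08) and the protease HTRA2 (log2 fold change -0.27 ± 0.05, edgeR adjusted p = 1.63e-04) were the largest falls of the list.

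In the endoplasmic reticulum, HSP90B1 and HSPA5 were higher while most of the J-domain proteins were lower. HSP90B1 (GRP94), the HSP90 of the compartment, measured 2249, 2033 and 1983 CPM in knockout libraries and 1581, 1438 and 1446 CPM in control libraries. HSPA5 (BiP), the main HSP70 there, measured 1448, 1298.8 and 1302 CPM in knockout libraries and 1184, 1031 and 1034 CPM in control libraries. In both genes replicate 1 was the highest of its group on either side, and the groups did not overlap. HSP90B1 was 1.403-fold higher (log2 fold change 0.49 ± 0.06, edgeR adjusted p = 1.19e-06) and HSPA5 was 1.25-fold higher (log2 fold change 0.32 ± 0.07, edgeR adjusted p = 2.83e-04). Their promoters were the only member promoters among the 100 searched windows with the ER stress element (CCAAT, any 9 bases, CCACG), which occurred in 27 of all 35116 windows (0.0769%). The windows, chr12:103930160-103930459 on the plus strand for HSP90B1 and chr9:125241294-125241593 on the minus strand for HSPA5 (GRCh38.p14), are printed with those matches on either strand in capitals.
HSP90B1: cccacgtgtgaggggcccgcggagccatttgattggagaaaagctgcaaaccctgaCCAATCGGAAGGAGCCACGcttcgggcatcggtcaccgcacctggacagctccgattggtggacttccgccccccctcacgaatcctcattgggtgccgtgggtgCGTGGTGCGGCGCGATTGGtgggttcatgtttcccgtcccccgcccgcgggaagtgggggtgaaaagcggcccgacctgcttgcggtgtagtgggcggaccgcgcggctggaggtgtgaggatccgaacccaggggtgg
HSPA5: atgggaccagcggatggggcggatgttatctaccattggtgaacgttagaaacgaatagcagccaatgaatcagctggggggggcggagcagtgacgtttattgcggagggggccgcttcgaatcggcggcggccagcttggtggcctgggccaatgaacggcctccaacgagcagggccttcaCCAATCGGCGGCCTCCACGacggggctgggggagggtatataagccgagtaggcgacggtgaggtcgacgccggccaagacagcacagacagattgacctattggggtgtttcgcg
HSP90B1 holds 2 matches and HSPA5 holds 1.

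DNAJB11 (ERdj3), which helps HSPA5 take up clients, averaged 133 ± 6.93 CPM in knockout cells and 115 ± 8.99 CPM in control cells (log2 fold change 0.20 ± 0.06, edgeR adjusted p = 0.00593). Its groups overlapped, and the call was lost without control replicate 2 (edgeR adjusted p = 0.0558). DNAJB9 (ERdj4), which keeps the stress sensor IRE1 quiet, fell 1.38-fold, with 17.00 ± 1.22 CPM in knockout cells and 23.5 ± 2.75 CPM in control cells (log2 fold change -0.46 ± 0.08, edgeR adjusted p = 4.77e-05). HSPA13, a truncated microsomal HSP70, averaged 137 ± 8.18 CPM in knockout cells and 180.4 ± 10.6 CPM in control cells (log2 fold change -0.40 ± 0.06, edgeR adjusted p = 6.54e-06). DNAJB12 and DNAJB14, membrane J-domain proteins of quality control, fell with log2 fold changes of -0.53 ± 0.05 (edgeR adjusted p = 2.78e-08) and -0.41 ± 0.07 (edgeR adjusted p = 2.27e-05). The neighbours of DNAJB12 had a median of -0.52, and its call was lost with that taken out (log2 fold change -0.02, edgeR adjusted p = 0.804). The stress-related DNAJC3 (log2 fold change -0.26 ± 0.06, edgeR adjusted p = 5.40e-04) and the membrane protein DNAJC1 (log2 fold change -0.25 ± 0.07, edgeR adjusted p = 0.00298) were lower too, but neither was called with the neighbours taken out. DNAJC10, a disulfide reductase, was not called (log2 fold change -0.02 ± 0.06, edgeR adjusted p = 0.733). In all, 3 of the 10 members of the compartment were higher (30.0%) and 6 were lower (60.0%), against 31.9% and 31.6% of all genes.

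The wider genes of folding in the endoplasmic reticulum and of its stress response had 8 higher, 7 lower and 8 not called of 23. Those shares, 34.8% higher and 30.4% lower, are near the 31.9% and 31.6% of all genes tested. The disulfide isomerase PDIA4 averaged 463 ± 22.4 CPM in knockout cells and 214 ± 17.6 CPM in control cells (log2 fold change 1.11 ± 0.06, edgeR adjusted p = 7.35e-12), and the stress-induced CRELD2 had a log2 change of 0.96 ± 0.07 (edgeR adjusted p = 5.72e-10). The oxidase ERO1B had a log2 change of -0.89 ± 0.09 (edgeR adjusted p = 2.63e-08). The abundant genes of this list did not share one direction. CANX averaged 1438 CPM in knockout cells and 1764 CPM in control cells (log2 fold change -0.29 ± 0.06, edgeR adjusted p = 2.46e-04). CALR averaged 1415 CPM in knockout cells and 849 CPM in control cells (log2 fold change 0.74 ± 0.06, edgeR adjusted p = 3.49e-09). PDIA3, P4HB and PPIB were not called. UGGT1, the folding sensor of glycoproteins, had -0.67 ± 0.06 (edgeR adjusted p = 9.36e-09) beside a neighbourhood median of -0.53, and without that it was not called.

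The cytosolic HSP90 genes were the most abundant members and moved little. HSP90AA1, the stress-inducible isoform, measured 6700.1, 6786 and 6504 CPM in knockout libraries and 5657, 5652 and 6349 CPM in control libraries. HSP90AB1, the constitutive isoform, measured 3396, 3437 and 3409.7 CPM in knockout libraries and 3003, 3002 and 3230.5 CPM in control libraries. For both, control replicate 3 was the highest control library and lay near the knockout values, although the groups did not overlap. HSP90AA1 was 1.13-fold higher (log2 fold change 0.18 ± 0.06, edgeR adjusted p = 0.0175) and HSP90AB1 1.11-fold higher (log2 fold change 0.15 ± 0.06, edgeR adjusted p = 0.0289). The HSP90AA1 call was lost without knockout replicate 2 (edgeR adjusted p = 0.0950) and without control replicate 2 (edgeR adjusted p = 0.127). The HSP90AB1 call was lost without knockout replicate 2 or 3 (edgeR adjusted p = 0.118 and 0.0886) and without control replicate 1 or 2 (edgeR adjusted p = 0.0564 and 0.162). Both lie in lowered neighbourhoods, with medians of -0.43 and -0.32. With these taken out, the log2 fold changes were 0.61 for HSP90AA1 and 0.47 for HSP90AB1.

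HSP110 proteins, which exchange the nucleotide of HSP70, were all higher. HSPA4 measured 435, 458 and 451 CPM in knockout libraries and 306, 311 and 326 CPM in control libraries, with a gap between the groups (log2 fold change 0.51 ± 0.05, edgeR adjusted p = 6.43e-08). HSPH1 measured 351, 350.4 and 342 CPM in knockout libraries and 274, 281 and 299 CPM in control libraries (log2 fold change 0.29 ± 0.05, edgeR adjusted p = 9.00e-05). With the neighbours taken out, HSPH1 was at 0.45. HSPA4L had a log2 change of 0.19 ± 0.05 (edgeR adjusted p = 0.00336).

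Of 23 other HSP90 co-chaperones, 10 were higher (43.5%), 7 were lower (30.4%) and 6 were not called. Over all genes tested, the shares were 31.9% higher and 31.6% lower. FKBP4 (FKBP52), an immunophilin of steroid receptor complexes, averaged 329 ± 9.84 CPM in knockout cells and 171 ± 8.04 CPM in control cells (log2 fold change 0.94 ± 0.05, edgeR adjusted p = 1.12e-11). Its relative FKBP5 (FKBP51) went the other way, with 37.8 ± 0.121 CPM in knockout cells and 51.9 ± 3.52 CPM in control cells (log2 fold change -0.46 ± 0.06, edgeR adjusted p = 9.36e-07). In the R2TP assembly complex, PIH1D1 was higher (log2 fold change 0.77 ± 0.05, edgeR adjusted p = 1.63e-10, neighbours 0.65) and RPAP3 was lower (log2 fold change -0.47 ± 0.06, edgeR adjusted p = 4.94e-07, neighbours -0.35), and neither passed with the neighbours taken out. Of 11 other HSP70 cofactors, 4 were higher (36.4%) and 3 were lower (27.3%), near the shares of all genes. HSPBP1, an exchange factor, rose (log2 fold change 0.79 ± 0.07, edgeR adjusted p = 1.53e-08, neighbours 0.73), as did ST13, the HSP70-interacting protein HIP (log2 fold change 0.30 ± 0.06, edgeR adjusted p = 1.52e-04, neighbours 0.27), and neither passed with the neighbours taken out. SEC63, the J-domain protein of the translocation channel, fell (log2 fold change -0.74 ± 0.06, edgeR adjusted p = 8.00e-10, neighbours -0.47).

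The 8 subunits of the TRiC ring, which assemble as 1 complex, did not move as a unit. CCT5 measured 708, 739 and 726 CPM in knockout libraries and 514, 519 and 566 CPM in control libraries. TCP1 measured 774, 826 and 825 CPM in knockout libraries and 642, 668 and 723 CPM in control libraries. CCT6A measured 449.8, 473 and 458 CPM in knockout libraries and 594, 608 and 674 CPM in control libraries. CCT5 and TCP1 thus lay higher in every knockout library and CCT6A lower in every knockout library. The log2 fold changes were 0.44 ± 0.06 for CCT5 (edgeR adjusted p = 9.29e-07), 0.25 ± 0.06 for TCP1 (edgeR adjusted p = 7.82e-04) and -0.44 ± 0.06 for CCT6A (edgeR adjusted p = 1.60e-06). CCT3 (log2 fold change 0.39 ± 0.06, edgeR adjusted p = 5.17e-06) and CCT7 (log2 fold change 0.28 ± 0.06, edgeR adjusted p = 2.44e-04) were higher, and CCT2, CCT4 and CCT8 were not called, with log2 fold changes of 0.07 ± 0.05, -0.06 ± 0.06 and 0.03 ± 0.06. With the neighbours taken out, CCT3 was at 0.24. The fall of CCT6A lay beside a neighbourhood median of -0.23, and it was -0.21 with that taken out (edgeR adjusted p = 0.00408). Summed over the ring, the level was 4349 ± 101 CPM in knockout cells and 3942 ± 232 CPM in control cells, a ratio of 1.103.

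Prefoldin and the tubulin cofactors, which work with TRiC, included 7 higher and 4 lower genes of 13 tested. These are 53.8% and 30.8%, against 31.9% and 31.6% of all genes tested. The prefoldin subunits PFDN2 (log2 fold change 0.59 ± 0.07, edgeR adjusted p = 2.02e-07) and PFDN4 (log2 fold change 0.58 ± 0.06, edgeR adjusted p = 9.23e-08) had the largest rises. The prefoldin-like URI1 (log2 fold change -1.09 ± 0.06, edgeR adjusted p = 1.80e-12, neighbours -0.58) and the tubulin cofactor TBCB (log2 fold change -0.84 ± 0.06, edgeR adjusted p = 7.79e-11, neighbours -0.42) had the largest falls.

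Among the J-domain proteins of the cytosol, DNAJB1, DNAJA1, DNAJA2 and DNAJB2 were higher, while DNAJB4, DNAJB5 and DNAJB6, described below, were lower. DNAJB1 (HSP40), the stress-induced partner, measured 147, 155 and 155 CPM in knockout libraries and 114, 118 and 127 CPM in control libraries, a 1.28-fold rise (log2 fold change 0.35 ± 0.05, edgeR adjusted p = 1.13e-05). DNAJA1, a farnesylated partner, measured 328, 352 and 335 CPM in knockout libraries and 272, 279 and 305 CPM in control libraries (log2 fold change 0.25 ± 0.06, edgeR adjusted p = 8.40e-04). The groups did not overlap for either gene. With the neighbours taken out, DNAJB1 was at 0.22 (edgeR adjusted p = 0.00169). DNAJA2 had a log2 change of 0.17 ± 0.06 (edgeR adjusted p = 0.0151) with overlapping groups. It lost the call without knockout replicate 2 or 3 (edgeR adjusted p = 0.0988 and 0.0646) and without control replicate 2 (edgeR adjusted p = 0.144). With the neighbours taken out, DNAJA2 was at -0.04 (edgeR adjusted p = 0.586). DNAJB2, a neuronal J-domain protein, was higher (log2 fold change 0.27 ± 0.06, edgeR adjusted p = 9.62e-04) by about as much as its neighbours, whose median was 0.25.

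DNAJB4, a close relative of DNAJB1, had the largest fall among the J-domain proteins. It measured 12.96, 14.8 and 11.97 CPM in knockout libraries and 26.1, 26.9 and 28.4 CPM in control libraries, so that every control library lay well above every knockout library. The fall was 2.05-fold (log2 fold change -1.03 ± 0.07, edgeR adjusted p = 3.31e-10), and the value was -0.89 with the neighbours taken out. DNAJC9, a histone chaperone that works with HSP70, measured 60.7, 61.9 and 62.3 CPM in knockout libraries and 96.4, 99.5 and 108 CPM in control libraries, a 1.64-fold fall (log2 fold change -0.72 ± 0.05, edgeR adjusted p = 6.60e-10). Its neighbours had a median of -0.50, and with that taken out it was at -0.22 (edgeR adjusted p = 0.00209). DNAJB5 (log2 fold change -0.33 ± 0.09, edgeR adjusted p = 0.00311) and DNAJB6, which keeps polyglutamine proteins from aggregating (log2 fold change -0.21 ± 0.05, edgeR adjusted p = 0.00177), were also lower. DNAJB6 lies among genes with a median of 0.28, and it was at -0.49 with that taken out (edgeR adjusted p = 1.39e-07).

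The DNAJC proteins, a mixed class with specialised tasks, held 7 higher, 9 lower and 9 uncalled genes of 25. Their shares were 28.0% higher and 36.0% lower, beside 31.9% and 31.6% of all genes tested. DNAJC28, whose task is little known, was low at 2.12 ± 0.139 CPM in knockout cells and 1.36 ± 0.142 CPM in control cells, with the largest rise of the class (log2 fold change 0.64 ± 0.16, edgeR adjusted p = 0.00163). DNAJC8, of the spliceosome, and DNAJC2, of the ribosome, were higher with log2 fold changes of 0.35 ± 0.06 (edgeR adjusted p = 2.08e-05) and 0.30 ± 0.05 (edgeR adjusted p = 3.94e-05). DNAJC2 was not called with its neighbours taken out (0.12, edgeR adjusted p = 0.0520). DNAJC22 had a log2 change of -0.55 ± 0.10 (edgeR adjusted p = 7.91e-05), and DNAJC24, which takes part in making diphthamide, had -0.48 ± 0.07 (edgeR adjusted p = 8.11e-06), or -0.22 with its neighbours taken out (edgeR adjusted p = 0.0130). DNAJC25 had -0.49 ± 0.06 (edgeR adjusted p = 1.09e-06), which was close to the median of its neighbours (-0.44), and it was not called with them taken out. The small changes of DNAJC7 and DNAJC16 kept their sign with any library left out, but not always their call. DNAJC7 (log2 fold change 0.14 ± 0.05, edgeR adjusted p = 0.0234) lost its call without knockout replicate 2 or 3 (edgeR adjusted p = 0.105 and 0.0581) or control replicate 1 or 2 (edgeR adjusted p = 0.0704 and 0.150). DNAJC16 (log2 fold change -0.18 ± 0.06, edgeR adjusted p = 0.0155) lost its call without knockout replicate 3 (edgeR adjusted p = 0.0795) or control replicate 1 (edgeR adjusted p = 0.0786). DNAJC5, which guards synaptic vesicle proteins, was not called (log2 fold change 0.11 ± 0.05, edgeR adjusted p = 0.0567) but was called higher without knockout replicate 1 (edgeR adjusted p = 0.0367), with library size alone (edgeR adjusted p = 0.0117) and with the filter of 1 CPM in 3 libraries (edgeR adjusted p = 0.0394). With the neighbours taken out it was called lower (log2 fold change -0.27, edgeR adjusted p = 1.20e-04).

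The remaining DNAJC genes changed little. DNAJC4 (log2 fold change 0.28 ± 0.07, edgeR adjusted p = 0.00266) was higher. DNAJC6, the auxilin that helps strip clathrin coats (log2 fold change -0.27 ± 0.08, edgeR adjusted p = 0.00784), and DNAJC21, which serves ribosome assembly (log2 fold change -0.24 ± 0.06, edgeR adjusted p = 9.34e-04), were lower. None of these 3 was called with its neighbours taken out. DNAJC13, DNAJC14, DNAJC17, DNAJC18 and DNAJC27 were not called, with log2 fold changes of 0.02 ± 0.05, 0.08 ± 0.06, -0.04 ± 0.07, 0.10 ± 0.06 and -0.16 ± 0.08. Of the exon bases of DNAJC14, 58.1% overlap another gene. With the neighbours taken out, DNAJC17 was called higher (log2 fold change 0.37, edgeR adjusted p = 1.60e-04) and DNAJC27 lower (-0.21, edgeR adjusted p = 0.0342).

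Most BAG proteins bind the ATPase domain of HSP70 and steer its clients. BAG6, a guardian of tail-anchored and misplaced membrane proteins, measured 485, 494 and 494 CPM in knockout libraries and 298, 291 and 299 CPM in control libraries. The groups were tight and far apart, with a 1.66-fold rise (log2 fold change 0.73 ± 0.05, edgeR adjusted p = 2.08e-10). BAG6 lies near HSPA1A on chromosome 6 in a neighbourhood with a median of 0.39, and it was at 0.33 with that taken out. BAG2, which holds back the ubiquitin ligase CHIP, measured 32.5, 39.5 and 35.2 CPM in knockout libraries and 54.6, 58.2 and 60.5 CPM in control libraries, a 1.61-fold fall (log2 fold change -0.69 ± 0.07, edgeR adjusted p = 2.15e-08). Its groups did not overlap, the neighbours had a median of -0.42, it was at -0.27 with that taken out, and 44.2% of its exon bases overlap another gene. BAG3, which joins small heat shock proteins and HSP70 in selective autophagy, measured 61.1, 65.1 and 62.7 CPM in knockout libraries and 71.7, 70.1 and 71.7 CPM in control libraries (log2 fold change -0.18 ± 0.05, edgeR adjusted p = 0.00513). It lies among genes with a median of -0.57, and with that taken out its direction turned to 0.40 (edgeR adjusted p = 1.68e-06). BAG5 (log2 fold change -0.45 ± 0.05, edgeR adjusted p = 2.40e-07) was not called with its neighbours taken out (-0.05, edgeR adjusted p = 0.440). BAG1 had a log2 change of -0.16 ± 0.06 (edgeR adjusted p = 0.0297) and lost the call with DESeq2 (adjusted p = 0.0602), with library size alone (edgeR adjusted p = 0.111), without knockout replicate 1 or 3 (edgeR adjusted p = 0.0529 and 0.0707) and without control replicate 3 (edgeR adjusted p = 0.127). BAG4 was not called (log2 fold change -0.05 ± 0.07, edgeR adjusted p = 0.520), but with its neighbours taken out it was called lower (-0.21, edgeR adjusted p = 0.0156).

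**Figure D3:**
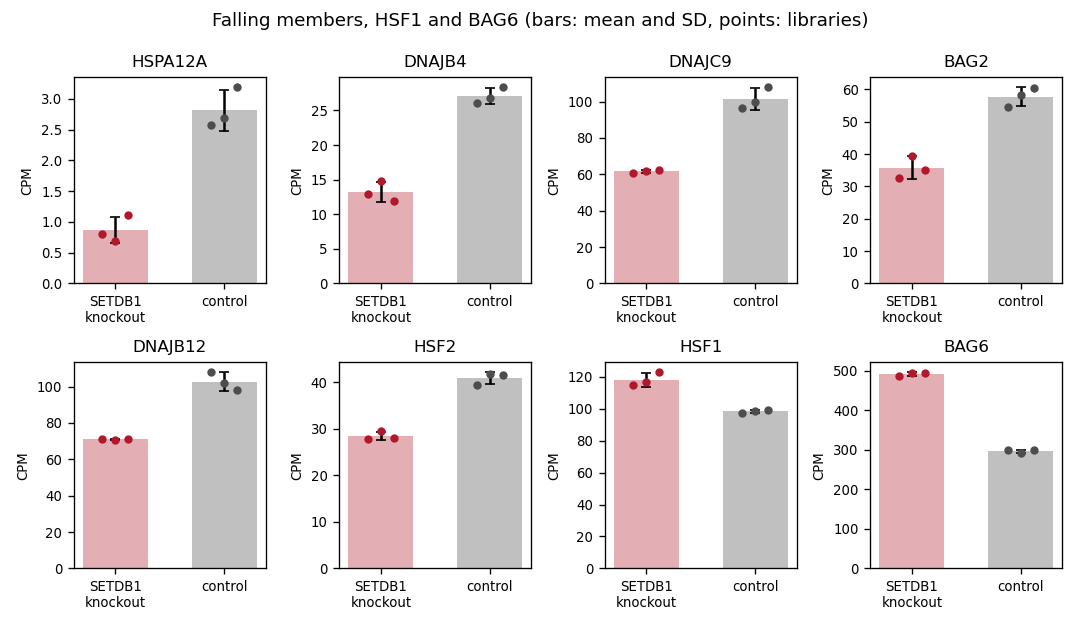
CPM of HSPA12A, DNAJB4, DNAJC9, BAG2, DNAJB12 and HSF2, which were lower, and of HSF1 and BAG6, which were higher, in each library, with the SETDB1 knockout left of the control, points for libraries and bars for the mean and SD (n = 3 each). The groups are separate in all 8 panels, and the relative gap is widest for HSPA12A.

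Outside the members, 13 further genes tied to the heat shock response were tested. Of these, 4 were higher (30.8%), 5 were lower (38.5%) and 4 were not called, against 31.9% higher and 31.6% lower of all genes. FKBP4, described above among the HSP90 co-chaperones, was one of the 2 largest rises, and the extracellular chaperone CLU was the other (log2 fold change 1.00 ± 0.06, edgeR adjusted p = 1.87e-11). The autophagy receptor SQSTM1 (log2 fold change -0.84 ± 0.05, edgeR adjusted p = 2.94e-11) and IER5, which acts on HSF1 (log2 fold change -0.74 ± 0.07, edgeR adjusted p = 6.91e-09), were the largest falls. Over the 94 tested genes of all the lists that are not members, 40 were higher (42.6%) and 29 were lower (30.9%). Thus 73.4% were called, against 63.5% of all genes tested.

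By abundance, most of the rises lay among the members with high levels. Of the 33 members that averaged at least 100 CPM, 23 were higher, 3 were lower and 7 were not called. Of all 2191 genes tested at that level, 696 were higher and 837 were lower. Thus 69.7% of the abundant members were higher, against 31.8% of all abundant genes, and 9.09% were lower, against 38.2%. In either direction, 78.8% of the abundant members and 70.0% of all abundant genes were called. The average is over both groups, so the knockout level under test helps to set which genes are counted. HSPB1, HSF1 and DNAJC8 averaged 53.9, 98.5 and 95.8 CPM in control cells and entered only through their knockout level. DNAJB12, DNAJB14 and DNAJC9, all lower, averaged 102.8, 100.3 and 101.3 CPM in control cells and were left out through theirs. Per kilobase of merged exons, HSP90AA1 (1269.7 CPM), HSP90AB1 (1146 CPM), HSPA8 (657 CPM), HSP90B1 (445 CPM), HSPD1 (391 CPM) and HSPA5 (345 CPM) led the order in knockout cells. In control cells the same genes led, at 1122 CPM for HSP90AA1, 1033 CPM for HSP90AB1, 602 CPM for HSPA8, 317 CPM for HSP90B1, 277 CPM for HSPA5 and 233 CPM for HSPD1, with HSPA5 ahead of HSPD1. The 76 members in the table together summed to 29180, 29521 and 28887 CPM in knockout libraries and to 24171, 23856 and 25719 CPM in control libraries. Thus every knockout library exceeded every control library. The mean sums equal 2.92% of the TMM-scaled library total in knockout cells and 2.46% in control cells, a ratio of 1.19. For HSP90AA1, HSP90AB1 and HSPA8 alone, they equal 1.33% of that total in knockout cells and 1.19% in control cells, a ratio of 1.12.

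**Figure D4:**
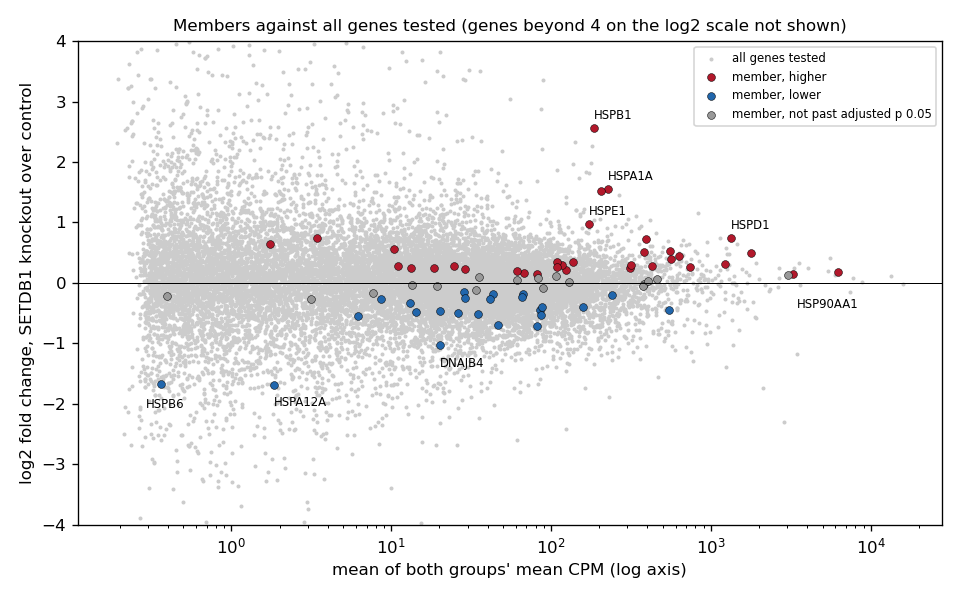
Log2 fold change of each gene, SETDB1 knockout over control, against the mean of both groups' mean CPM on a log axis, with all genes tested in grey and the members coloured by their call. The 215 genes beyond 4 on the log2 scale are not drawn. The members at 100 CPM and above lie mostly over the 0 line, whereas the grey cloud is spread on both sides of it.

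Many members moved in the direction of the chromosome around them. The median log2 fold change of the 25 expressed genes on each side had the same sign as the member's own value for 56 of the 75 tested members. When this median was used as an offset in the fit, 33 members were higher and 17 were lower, and 12 members changed sign. No counts over all genes tested are set beside these, so they are not shown to be particular to the members. HSF1 and BAG3 were called in opposite directions with and without the offset. HSPB1, HSPD1, HSPE1, HSP90B1 and DNAJB4 kept log2 fold changes of 2.53, 0.73, 0.96, 0.45 and -0.89 with it. HSPA8, which was not called without the offset, was called higher with it (log2 fold change 0.32, edgeR adjusted p = 1.20e-04), as were CCT2 and CCT8, at 0.28 (edgeR adjusted p = 2.13e-04) and 0.20 (edgeR adjusted p = 0.00423). Among the other named genes, the offset moved FKBP5 to -0.22, SEC63 to -0.27, CLPX to -0.15, PFDN4 to 0.15, URI1 to -0.51, TBCB to -0.42 and SETDB1 to -0.28, and their calls were kept. The part of the neighbourhood in these results was not tested.

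**Figure D5:**
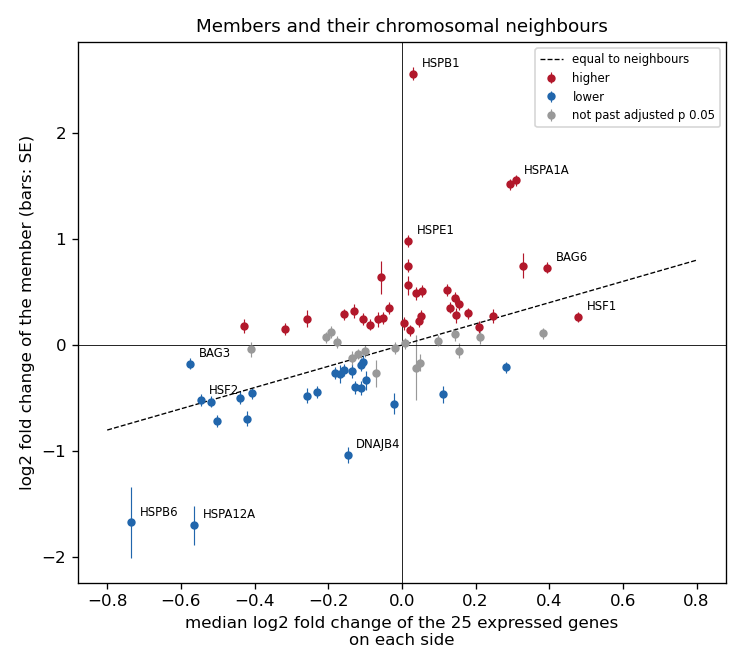
Log2 fold change of each tested member (bars: SE) against the median log2 fold change of the 25 expressed genes on each side, coloured by the member's call, with a dashed line where both are equal. HSPB1, HSPA1A, HSPA1B, HSPE1 and HSPD1 lie well above the line, HSPA12A and DNAJB4 well below it, and HSF2, DNAJB12 and BAG5 lie on or close to it.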

How the data were processed

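Bulk RNA-seq of 6 H1299 libraries was analysed, 3 with the SETDB1 guide and 3 with the control guide, with groups and replicate numbers taken from the sample titles. The authors deposited raw read counts per gene. Per the labels' protocols, libraries were made from total RNA with an Illumina TruSeq kit. FastQC, TopHat2, HTSeq and the build GRCh38.p7 are named in the submitters' processing notes, with versions and settings, strand included, not given in the sources used here. Every row reached more than 10 counts in at least 1 library (smallest row maximum 11), so lower genes were not analysed here. Reads of near-identical or overlapping genes may have been split, dropped or miscounted.

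Identifiers were matched without version to GENCODE 29, which named 18595 of 18677 rows. Counts were tested in R 4.3.3 with edgeR 4.0.16 (filterByExpr, TMM factors from 0.976 to 1.02, robust glmQLFit and glmQLFTest, knockout over control, two-sided). Benjamini-Hochberg adjustment ran over all 17675 genes at a threshold of 0.05, and members were read from that fit. The common biological coefficient of variation was 4.89%, and no 2 libraries of a group agreed within counting error (chi-square over its degrees of freedom 2.28 to 9.83). The fit was tested on simulated data.

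The members and lists were chosen with earlier results of these data known. Named were the 10 largest called rises and falls among members averaging at least 1 CPM in the higher group, a set of well-known members, the largest called change of each class, and up to 2 called rises and 2 falls of each list of other genes. This gave 35 members and 24 other genes, SETDB1 included. One gene that the rule takes is not reported here. Further members were named after their values were seen, so that each class is complete. CANX, CALR, PDIA3, P4HB and PPIB were also named after their values were seen. Compartments of members came from textbook knowledge, after values were seen. CRYAB, which the rule would name, was not analysed here.

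Neighbours were the 25 genes with log2 CPM above 3 on each side in GENCODE 29. Shared sequence was the percentage of 50-base words of the longest coding transcript found in other annotated genes. Promoters (RefSeq, GRCh38.p14) were matched by symbol for 76 members and searched on both strands. As alternatives, the scaling was changed to DESeq2 size factors or library size alone, the filter to none or at least 1 CPM in 3 libraries, the tool to DESeq2 1.42.0 or limma-voom (limma 3.58.1), and the call to an adjusted p under 0.01 or glmTreat at a fold of 1.5. The replicate number was also used as a block, the neighbourhood median as an offset, and each library was left out in turn.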

Additional observations from a re-analysis of the deposited data

How the results depend on the processing

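Of the 58 called members, 50 kept their call and sign under each scaling, filter, tool, replicate block and left-out library that tested them (HSPB6 falls under the filter of 1 CPM), while BAG1, DNAJA2, DNAJB11, DNAJC7, DNAJC16, HSP90AA1, HSP90AB1 and HSPA2 lost it under at least 1. Members called higher and lower were 34 and 24 with DESeq2 size factors, 36 and 23 with library size alone, 34 and 25 without a filter, 35 and 23 at 1 CPM, 35 and 23 with DESeq2, 35 and 24 with limma-voom, and 30 and 22 at an adjusted p under 0.01. With library size alone, the median log2 fold change of all genes was 0.050, against 0.01 in the main fit. That upward shift was thus not particular to the members. With the other scaling, the filters and the tools, this median ran from 0.003 to 0.012. Against a fold of 1.5 (glmTreat), 6 members were higher and 4 lower, and 1556 of all genes were higher and 1496 lower, which follows from the stricter hypothesis. With a library left out, members called higher ran from 28 to 35 and lower from 24 to 25, and all genes called higher from 5072 to 5570 and lower from 5163 to 5524. The labels share replicate numbers, but deviations of same-numbered libraries correlated at 0.0878, -0.0628 and 0.0248, so the numbers were not taken as pairs. With the replicate block, 36 members were higher and 24 lower, and 5864 of all genes were higher and 5839 lower. The block also moved HSPA8 (adjusted p = 0.00474) and DNAJC5 (adjusted p = 0.0333) past the threshold. With the neighbourhood median taken out, log2 fold changes reversed for HSF1 (-0.21), HSF2 (0.0246), BAG3 (0.40), DNAJA2 (-0.0397), DNAJC5 (-0.27), DNAJC17 (0.37) and ATF5 (-0.0579), and the cause was not tested. Of the uncalled members, CCT4, HSPA14, DNAJA3, DNAJC11, DNAJC14 and DNAJC18 changed sign there as well. Under another scaling, filter or tool, DNAJC10 and DNAJC17, both uncalled, changed sign with library size alone (0.0175 and 0.0031), and no called value did. Each group rests on 1 guide and 3 libraries, and members under about 1 CPM, such as HSPB6, HSPB8 and HSPA6, are limited by depth.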

Other observations

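Rows of processed copies and other pseudogenes of the members' families were not part of any comparison above. The table held 27 such rows, of which 24 were tested, 14 were higher in the SETDB1 knockout and 3 were lower. Their shares were 58.3% higher and 12.5% lower, beside 31.9% and 31.6% of all genes tested. HSPB1P1 averaged 25.1 CPM in knockout cells and 4.62 CPM in control cells (log2 fold change 2.44, edgeR adjusted p = 1.27e-14), beside 2.56 for HSPB1, and HSPB1P2 had a log2 fold change of 2.39. HSPE1P2, HSPE1P3 and HSPE1P4 had log2 fold changes of 1.03, 1.03 and 1.07, beside 0.98 for HSPE1. HSPD1P1, HSPD1P4 and HSPD1P6 had log2 fold changes of 0.76, 0.79 and 0.69, beside 0.75 for HSPD1, while HSPD1P10 had 2.90 with 16, 15 and 17 reads in knockout libraries and 2, 4 and 0 reads in control libraries. HSP90AB3P had 0.09, beside 0.15 for HSP90AB1. CCT6P1 and CCT6P3 had log2 fold changes of -0.24 and -0.32, beside -0.44 for CCT6A. HSP90B2P had -0.79, beside 0.49 for HSP90B1, with 10, 11 and 10 reads in knockout libraries and 14, 18 and 21 reads in control libraries. These rows were chosen after their values were seen, and reads of a gene and its copy cannot be told apart in these counts.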
